A study of Mus musculus with 9 samples.

Results

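Among 43629 genes measured in c-KIT+ mouse bone marrow, 168 were much higher with the Cbfb-MYH11 fusion allele than in WT and stood at no more than 25% of that level when Chd7 was floxed as well. The members were chosen from the group means of the deposited values: a KI mean of at least 100, a KI mean plus 1 at least 8 times the WT mean plus 1, and a KI_Chd7del mean of at most 0.25 of the KI mean. Both KI against WT and KI_Chd7del against KI were therefore used by the choice, and values in these comparisons describe the members without testing them. The choice set no limit on KI_Chd7del against WT, but both means entered it. Calls and p-values of members in that comparison are therefore descriptive too. Of 342 genes that met the first 2 limits, 168 (49.1%) met the third and 174 did not. Within the module lay alpha globins, mast cell proteases, enzymes of serotonin and arginine metabolism, chemokines, cytokine receptors and fibronectin.

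RNA-seq was run on 3 libraries in each of 3 groups of mice of the labelled strain C57BL/6, all given pIpC, a double-stranded RNA mimic that induces interferon. The control group was labelled WT, with no allele named. The group called KI carried Mx1-Cre and Cbfb+/56M, and the group called KI_Chd7del carried Chd7f/f, Mx1-Cre and Cbfb+/56M. Cre from the interferon-inducible Mx1 promoter acts in blood cells and also in other tissues, and since Cre was not named for WT, the fusion and Cre cannot be told apart. Cells were selected with beads against CD117 and total RNA was extracted. Nothing in the labels ties each library to its own mouse, so the p-values reflect only how these samples spread, which may be technical.

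The CBFB-MYH11 fusion, made by a chromosome inversion in human acute myeloid leukaemia, joins core binding factor beta, the partner of the RUNX DNA-binding proteins, to the tail of a smooth muscle myosin, and holds back myeloid maturation. Chd7 encodes a chromodomain helicase that moves nucleosomes at enhancers and promoters. c-KIT, the receptor for stem cell factor, is carried by haematopoietic stem and progenitor cells and, throughout life, by mast cells.

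A normalised value below is the deposited whole number for a gene in a library, which appears to be a read number scaled by 1 factor per library. Column totals were 43.2 to 46.2 M for WT, 37.7 to 39.0 M for KI and 37.5 to 38.1 M for KI_Chd7del. Kit, which encodes the selected receptor, was high in all 9 libraries, at 7362, 7354 and 7797 in WT, at 3868, 3226 and 3521 in KI and at 6131, 7732 and 8508 in KI_Chd7del. Chd7 stood at 3471, 3745 and 3982 in WT, at 1979, 2934 and 2009 in KI and at 1862, 1794 and 1921 in KI_Chd7del. The difference in Chd7 between KI_Chd7del and KI did not pass the test (log2 difference -0.29, SE 0.14, adjusted p = 0.121), and a gene-level value is no check of floxed exons. Myh11, which supplies the tail of the fusion, was at 8, 9 and 5 in WT, at 219, 194 and 176 in KI and at 187, 164 and 176 in KI_Chd7del.

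Summed over the 168 members, the module took 0.0588%, 0.0519% and 0.0571% of all normalised values in the WT libraries. It took 1.50%, 1.10% and 1.68% in KI, and 0.238%, 0.207% and 0.138% in KI_Chd7del. Fn1, Hba-a1 and Il1rl1, the 3 members with the highest KI mean, made up 28.2% of the module's sum in KI. In KI, 73 members averaged at least 1000. The median member stood at 12.9% of its KI mean in KI_Chd7del (quartiles 7.60% and 18.7%), with 59 members under 10% and 23 under 5%. As bulk RNA was measured, fewer cells that express a gene and less RNA per cell cannot be told apart.

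**Figure D1:**
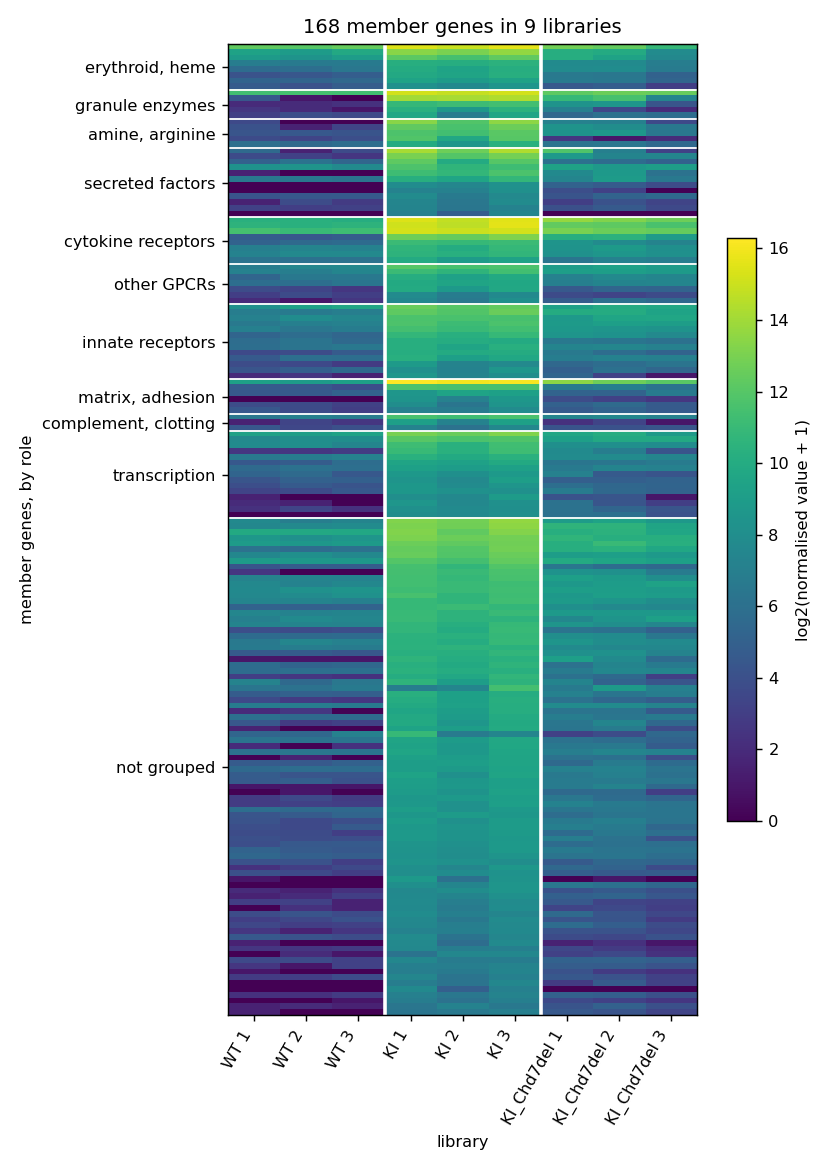
Heatmap of log2(normalised value + 1) for the 168 members (rows, grouped by role and ordered by KI mean within a role) in 9 libraries (columns). The 3 KI columns are brighter than the WT and KI_Chd7del columns, and KI_Chd7del is brighter than WT in many rows.

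The test was limma, with a trend of variance on mean, on log2(value + 1), fitted across 15997 genes that reached 10 in at least 3 libraries, with Benjamini-Hochberg adjustment over all of them. All 168 members were in the fit. In KI against WT, 166 members were called higher where 31.8% of all tested genes were, and 167 had every KI library above every WT library (35.9% of tested genes). In KI_Chd7del against KI, 167 were called lower (22.9% of tested genes) and 167 had no overlap (28.2%). These counts follow from how the members were chosen. The members' median log2 difference was 4.56 for KI against WT and -2.94 for KI_Chd7del against KI, beside 0.02 and -0.01 over all tested genes.

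The limit at 25% cut through a continuous range. Among the 342 induced genes, 33 stood at 20% to 25% of KI and 39 above 25% and up to 30%. Just inside were the nucleotide-sugar receptor gene P2ry14 (ratio 0.249), Ndrg2 (0.247) and Tspan18 (0.247), and just outside Phlda3 (0.2502), Ptgfrn (0.253) and Abca9 (0.254). At the 8-fold limit, Mras (8.03) and Cttnbp2nl (8.09) lay just inside. The mast cell regulator Mitf (7.97), C3ar1 (7.95) and Pla2g2d (7.82) lay just outside. At the level of 100, Slc12a1 (KI mean 102), Pyy (115) and Wfdc12 (126) were just inside and Patl2 (98), Adgrl3 (96.3) and Bloodlinc (96.3) just outside.

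**Figure D2:**
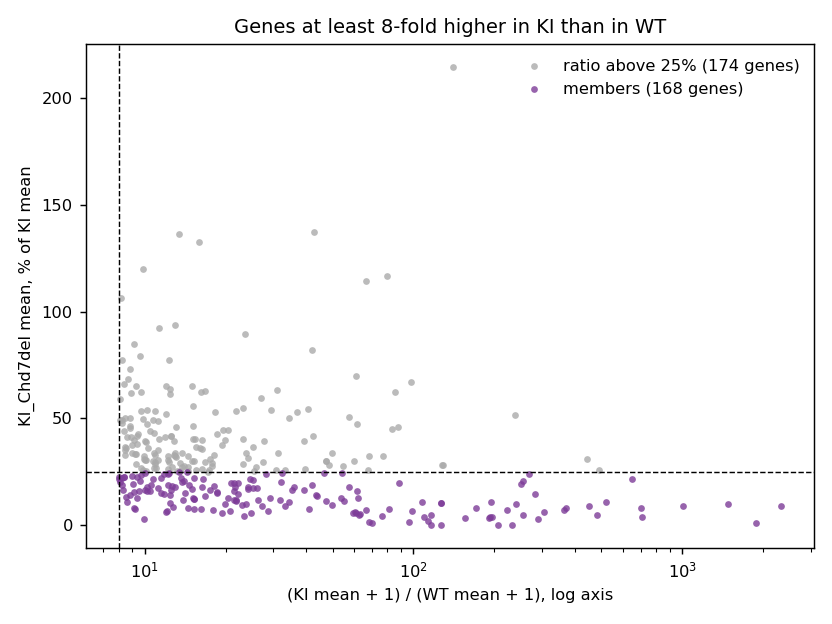
Scatter of the 342 induced genes, with the ratio of KI to WT (means plus 1, log axis) on x, the KI_Chd7del mean as a percentage of the KI mean on y, and dashed lines at the limits of 8 and 25%. No gap separates the 168 members from the 174 other genes at 25%, and 8 of the others lie above 100%.

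Erythroid and heme genes were described first, since 3 of the 8 lie in 1 cluster on chromosome 11. Hba-a1 (ENSMUSG00000069919, chromosome 11, 32283511 to 32284465, GRCm38), which encodes alpha globin, was at 5084, 4020 and 5558 in WT, at 44007, 30916 and 51271 in KI and at 6938, 5233 and 1823 in KI_Chd7del. Per kb of exon it was the highest of all members in KI, at 51804 per kb. The KI libraries lay far above both other groups, while KI_Chd7del overlapped WT (log2 difference -0.26, SE 0.43, adjusted p = 0.645). Hba-a2 (ENSMUSG00000069917, chromosome 11, 32296489 to 32297298), the second adult alpha globin gene, stood at 473, 333 and 518, 4706, 2861 and 5026 and 1139, 672 and 193 in WT, KI and KI_Chd7del. The split of reads between these near-identical copies is uncertain. Hbq1b (ENSMUSG00000073063, chromosome 11, 32286965 to 32287784), a theta globin gene between them, was at 26, 16 and 27, 296, 211 and 362 and 22, 28 and 7. In all 3 globin genes KI_Chd7del library 3 was below every WT library and the other 2 libraries were not.

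Alas2 (ENSMUSG00000025270, chromosome X, 150547375 to 150570638), the first enzyme of heme synthesis in red cell precursors, was at 671, 489 and 900 in WT, at 10569, 8124 and 12878 in KI and at 1123, 1003 and 230 in KI_Chd7del. Its KI_Chd7del libraries lay on both sides of WT (log2 difference -0.06, SE 0.53, adjusted p = 0.934). The other members with an erythroid role were the glycine transporter gene Slc6a9, tropomodulin Tmod1, the ribonuclease gene Slfn14 and Erfe, the hormone by which erythroblasts lower hepcidin. Erfe stood at 37, 37 and 45, 703, 484 and 670 and 105, 89 and 38 in the 3 groups. All 8 had their lowest KI_Chd7del value in library 3. Of the 8, 3 were called higher in KI_Chd7del than in WT, where 24% of all tested genes were, and 5 passed in neither direction.

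Other red cell genes differed among themselves in direction in KI. Here and below, members are left out when the genes of a list are counted, since the choice fixed their calls, which also takes out the listed genes with the largest changes. Without Hba-a1 and Alas2, an erythroid list had 11 tested genes, of which 3 were called higher (31.8% of all tested genes) and 4 lower (27.2%) in KI than in WT, with a median of 0.09. In KI_Chd7del against KI, 9 were called lower (22.9%) and 1 higher (17.5%), with a median of -0.85. Hbb-bs, the adult beta globin gene, missed the 8-fold limit: it stood at 5148, 3456 and 6179 in WT, at 40283, 26745 and 43283 in KI and at 7375, 4479 and 1481 in KI_Chd7del. It rose in KI against WT (log2 difference 2.91, SE 0.51, adjusted p = 0.000905) and fell in KI_Chd7del against KI (log2 difference -3.30, SE 0.51, adjusted p = 0.00129). Slc4a1, the anion exchanger of the red cell membrane, was at 5040, 3789 and 6386 in WT, at 6593, 4880 and 4548 in KI and at 1509, 901 and 960 in KI_Chd7del, and fell in KI_Chd7del against KI (log2 difference -2.27, SE 0.24, adjusted p = 0.000212). Gata1, a transcription factor of red cell and mast cell genes, rose in KI (log2 difference 0.88, SE 0.15, adjusted p = 0.00088). It fell in KI_Chd7del against KI (log2 difference -1.09, SE 0.15, adjusted p = 0.000782). Gata2, a GATA factor on the mast cell list below, stood at 1284, 955 and 983 in WT. It was at 17177, 13086 and 18135 in KI (log2 difference 3.91, SE 0.19, adjusted p = 5.42e-07). In KI_Chd7del Gata2 was at 13195, 9982 and 8376 (log2 difference -0.63 against KI, SE 0.19, adjusted p = 0.0256).

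Upstream of the alpha globins on the same chromosome lie Il9r and Rhbdf1, both members. Il9r (ENSMUSG00000020279, chromosome 11, 32187541 to 32200279), which encodes the interleukin-9 receptor of mast cells and T cells, stood at 26, 20 and 26 in WT, at 6566, 5433 and 9210 in KI and at 1171, 1393 and 499 in KI_Chd7del. Rhbdf1 (ENSMUSG00000020282, chromosome 11, 32209585 to 32222300), an inactive rhomboid protein, was at 4, 7 and 11, 281, 177 and 398 and 45, 35 and 12. From Il9r to Hba-a2 the gap was 96.2 kb. Between Il9r and Hba-a1 lie 3 other tested genes, none of them a member. Nprl3 (ENSMUSG00000020289, chromosome 11, 32225628 to 32267707), whose introns hold the known alpha globin enhancers, stood at 681, 559 and 608 in WT, at 1413, 1296 and 1486 in KI and at 848, 791 and 718 in KI_Chd7del. It rose in KI against WT (log2 difference 1.18, SE 0.10, adjusted p = 8.44e-06) and fell in KI_Chd7del against KI (log2 difference -0.83, SE 0.10, adjusted p = 0.000309). Mpg, a DNA repair glycosylase gene that overlaps Nprl3, was at 129, 126 and 128 in WT, at 255, 255 and 264 in KI and at 160, 138 and 126 in KI_Chd7del, with a rise (log2 difference 1.01, SE 0.12, adjusted p = 9.13e-05) and a fall (log2 difference -0.87, SE 0.12, adjusted p = 0.000789) in the same comparisons. Nprl3 and Mpg share 1340 exon bases, of 3752 in Mpg. Whether counting used the strand is not given in the sources used here, so reads of the overlapping pair may be shared. Their changes may therefore not be separate. Snrnp25, a spliceosome protein gene next to Il9r, stood at 855, 745 and 788, 1147, 969 and 1207 and 961, 883 and 800.

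**Figure D3:**
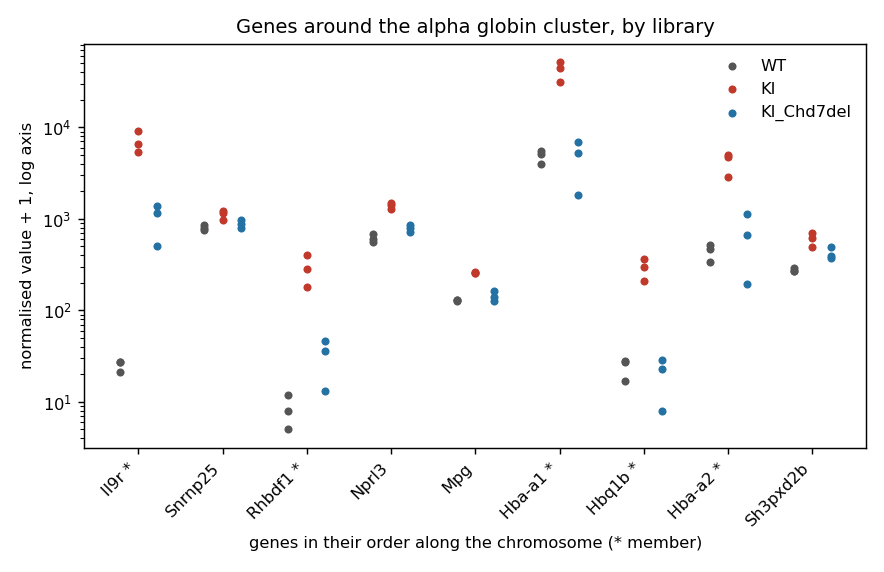
Normalised value plus 1 (log axis) in each of 9 libraries for 9 genes in their order along chromosome 11, with members starred. The 5 starred genes show KI libraries far above WT and KI_Chd7del, and the genes between them move in the same order by smaller amounts.

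Promoter sequences are shown for 6 members, chosen after the windows had been searched, as examples of genes in this cluster and of the main groups below. Each is the 250 bases before the start site in RefSeq, on the GRCm38.p6 build, 5′ to 3′ on the gene's strand. The gene spans in the text are from GENCODE M21. The RefSeq start lay 161 bases inside that span for Hba-a1 and 58 bases inside it for Retnla, so their windows overlap the spans. Capitals mark GATAA or its reverse complement TTATC, the core bound by GATA factors, and TGTGGT or its reverse complement ACCACA, the core bound by RUNX proteins. Hba-a1 lies at chr11:32283422-32283671 and Il9r at chr11:32200280-32200529.
Hba-a1: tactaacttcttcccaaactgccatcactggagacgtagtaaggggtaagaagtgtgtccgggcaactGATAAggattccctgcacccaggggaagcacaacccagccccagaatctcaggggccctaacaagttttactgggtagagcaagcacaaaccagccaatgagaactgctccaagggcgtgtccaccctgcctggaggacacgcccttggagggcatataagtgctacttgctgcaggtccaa
Il9r: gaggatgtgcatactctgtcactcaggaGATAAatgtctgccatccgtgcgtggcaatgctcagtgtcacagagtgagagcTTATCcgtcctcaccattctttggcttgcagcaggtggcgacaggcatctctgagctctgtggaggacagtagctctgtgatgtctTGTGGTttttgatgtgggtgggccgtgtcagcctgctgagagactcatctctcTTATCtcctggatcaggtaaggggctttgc
The Hba-a1 window held 1 GATAA and no TGTGGT, and the Il9r window held 3 GATAA and 1 TGTGGT, counting both strands. The Hba-a2 window matched that of Hba-a1 in 247 of 247 aligned bases at a shift of 3. Of 10896 tested genes with a window, 15.2% held GATAA and 11.4% TGTGGT. The search also covered GAGGAA for PU.1 (23.1% of windows), TGANTCA for AP-1 (4.4%), TTGCNNAA for C/EBP (7.7%), the STAT6 motif (4.7%) and CANNTG for E-box factors (57.8%), each on both strands. A window was given for 123 of 168 members (73.2%), under 80%, so a comparison of motif shares between members and other genes is void and none is made. A match describes letters in a window and is no sign of binding.

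The 5 granule enzymes had the highest median ratio of KI to WT means of the 10 roles (339-fold), from 12.6-fold for Ctsc to 2666-fold for Mcpt1. Mcpt1 (ENSMUSG00000022227, chromosome 14, 56017971 to 56020384), a chymase of mucosal mast cells, was at 20, 1 and 0 in WT, at 16539, 18321 and 21135 in KI and at 1893, 3047 and 168 in KI_Chd7del. Its KI_Chd7del libraries spread from 168 to 3047, yet all exceeded WT (adjusted p = 0.000673). Mcpt2 (ENSMUSG00000022226, chromosome 14, 56042041 to 56044642), the neighbouring chymase, stood at 3, 3 and 4, 1849, 2251 and 2634 and 324, 374 and 19, and was also higher in KI_Chd7del than in WT (log2 difference 4.97, SE 0.93, adjusted p = 0.00215). Cma1 (ENSMUSG00000022225, chromosome 14, 55941451 to 55944675), the chymase of connective tissue mast cells, was at 7, 14 and 11 in WT, at 868, 117 and 756 in KI and at 44, 68 and 56 in KI_Chd7del. KI library 2 of Cma1 was at 117 beside 868 and 756, whereas Mcpt1 and Mcpt2 showed no such low library. Cma1 was higher in KI_Chd7del than in WT (log2 difference 2.31, SE 0.67, adjusted p = 0.0183), a call lost without WT library 1 (adjusted p = 0.0597) or KI_Chd7del library 2 (0.0569). Family members are alike in sequence and the split of reads between them is uncertain.

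The windows of 2 chymases are shown because these genes share a locus on chromosome 14 but differed in their spread between KI libraries. Mcpt1 lies at chr14:56017714-56017963 and Cma1 at chr14:55944676-55944925.
Mcpt1: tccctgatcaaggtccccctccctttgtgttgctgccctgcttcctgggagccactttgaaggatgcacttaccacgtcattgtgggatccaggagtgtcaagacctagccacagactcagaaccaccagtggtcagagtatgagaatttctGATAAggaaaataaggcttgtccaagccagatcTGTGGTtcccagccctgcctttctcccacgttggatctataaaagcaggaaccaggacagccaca
Cma1: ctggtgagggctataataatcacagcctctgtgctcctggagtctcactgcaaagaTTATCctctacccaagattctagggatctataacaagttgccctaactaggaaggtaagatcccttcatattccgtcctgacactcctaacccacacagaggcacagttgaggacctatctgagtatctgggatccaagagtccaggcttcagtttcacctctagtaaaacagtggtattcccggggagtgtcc
The Mcpt1 window held 1 GATAA and 1 TGTGGT, and the Cma1 window 1 GATAA alone.

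Ctsc (ENSMUSG00000030560), the cathepsin that activates granule proteases, was at 2658, 2891 and 2625 in WT, at 36195, 30249 and 36241 in KI and at 4852, 6350 and 5713 in KI_Chd7del, with tight replicates and a level in KI_Chd7del above WT (log2 difference 1.04, SE 0.11, adjusted p = 7.47e-05). Rnase2a, an eosinophil-type ribonuclease gene, was at 5, 3 and 1, 1304, 413 and 1336 and 138, 10 and 3.

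Mast cell genes outside the module were tested too. Without the members Cma1, Mcpt1, Mcpt2, Tph1 and Il1rl1, a mast cell list had 11 tested genes, of which 9 were called higher and 2 lower in KI than in WT, and 8 lower and 2 higher in KI_Chd7del than in KI, with medians of 3.43 and -0.91. Over all tested genes, 31.8% were called higher and 27.2% lower in the first comparison, and 22.9% lower and 17.5% higher in the second. Ms4a2, a signalling subunit of the mast cell IgE receptor, rose in KI from 1024, 851 and 938 to 30039, 21960 and 30842 (log2 difference 4.87, SE 0.18, adjusted p = 1.96e-07) and fell in KI_Chd7del to 18441, 14835 and 11302 (log2 difference -0.91, SE 0.18, adjusted p = 0.00472). Slc18a2, the vesicle transporter of amines, rose from 482, 464 and 507 to 5288, 4190 and 6446 (log2 difference 3.43, SE 0.16, adjusted p = 4.59e-07) and fell to 3074, 3120 and 2344 (log2 difference -0.89, SE 0.16, adjusted p = 0.00244). Mitf, the transcription factor just outside the 8-fold limit, rose from 234, 206 and 230 to 1757, 1382 and 2225 (log2 difference 2.97, SE 0.16, adjusted p = 8.87e-07) and fell to 409, 421 and 364 (log2 difference -2.14, SE 0.16, adjusted p = 3.81e-05). The 2 listed genes that moved the other way were Kit and Hdc. Kit fell in KI (log2 difference -1.09, SE 0.11, adjusted p = 3.88e-05) and rose in KI_Chd7del against KI (log2 difference 1.07, SE 0.11, adjusted p = 0.000212). Hdc fell from 11158, 15789 and 14482 to 9403, 8710 and 9358 (log2 difference -0.58, SE 0.11, adjusted p = 0.00167). It rose to 12278, 12688 and 11818 in KI_Chd7del (log2 difference 0.42, SE 0.11, adjusted p = 0.0158). Prss34, a basophil and mast cell protease gene that is not on this list, also moved the other way. It fell in KI from 5917, 5246 and 5778 to 785, 831 and 761 (log2 difference -2.83, SE 0.16, adjusted p = 1.32e-06) and rose to 2970, 2104 and 3606 in KI_Chd7del (log2 difference 1.83, SE 0.16, adjusted p = 8.77e-05). The summed level of the 13 listed genes that are no members was 24403 to 27934 for WT, 81456 to 126172 for KI and 61682 to 79118 for KI_Chd7del. Of the list, Tpsab1 was at 0 in all WT and KI libraries and Mcpt4 in all WT libraries. The part of a changed number of mast cells in the members' values was not tested.

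Amine and arginine metabolism contributed 5 members. Tph1 (ENSMUSG00000040046, chromosome 7, 46644641 to 46672537), the rate-limiting enzyme of serotonin synthesis outside the brain, was at 11, 0 and 0 in WT, at 10591, 3788 and 11921 in KI and at 144, 138 and 11 in KI_Chd7del, which was 1.11% of KI. Ddc (ENSMUSG00000020182), the decarboxylase that completes serotonin, stood at 19, 21 and 18, 3411, 2593 and 4415 and 333, 400 and 87. Maob (ENSMUSG00000040147), a monoamine oxidase, stood at 16, 2 and 9, 4978, 3068 and 6417 and 336, 252 and 89. All 3 were called higher in KI_Chd7del than in WT (Tph1 adjusted p = 0.00888, Ddc adjusted p = 0.000454, Maob adjusted p = 0.00051), although in Tph1 library 3 of KI_Chd7del (11) equalled the highest WT library. The member 1700042O10Rik lies within Ddc on the opposite strand and shares 0 exon bases with it in GENCODE M21, so the pair overlaps only through introns. Without these 3 members, a serotonin and histamine list had 5 tested genes, of which 2 were called higher (31.8% of all tested genes) and 3 lower (27.2%) in KI than in WT, and 2 lower (22.9%) and 3 higher (17.5%) in KI_Chd7del than in KI.

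The Tph1 window is shown beside those of the chymases, since it is the serotonin gene with the lowest KI_Chd7del level relative to KI, and lies at chr7:46672538-46672787.
Tph1: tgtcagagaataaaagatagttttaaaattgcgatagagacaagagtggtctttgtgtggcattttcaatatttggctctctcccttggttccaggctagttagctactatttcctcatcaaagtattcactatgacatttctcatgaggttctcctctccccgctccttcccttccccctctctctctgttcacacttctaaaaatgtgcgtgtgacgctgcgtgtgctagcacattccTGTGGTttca
It held no GATAA and 1 TGTGGT.

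Arg1 (ENSMUSG00000019987, chromosome 10, 24915221 to 24927484), the arginase of liver and alternatively activated macrophages, was at 12, 9 and 14 in WT, at 3811, 855 and 4166 in KI and at 5, 1 and 3 in KI_Chd7del. Arg1 thus stood at 0.102% of its KI mean and was the 1 member called lower in KI_Chd7del than in WT (log2 difference -1.78, SE 0.61, adjusted p = 0.0375), where 24.3% of tested genes were. That call rests on low values and was lost without any 1 of the WT libraries (adjusted p = 0.0627 to 0.104) or without KI_Chd7del library 2 (0.125) or 3 (0.0672). Slc7a2, a transporter of arginine, was at 62, 46 and 55, 1020, 373 and 1285 and 76, 82 and 45.

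Secreted factors made up 12 members. Retnla (ENSMUSG00000061100, chromosome 16, 48842551 to 48844461), a secreted resistin relative made by macrophages exposed to IL-4, stood at 48, 2 and 12 in WT, at 17928, 6702 and 21170 in KI and at 3552, 127 and 8 in KI_Chd7del. In KI_Chd7del the libraries ran from 8, within the WT range, to 3552, and the difference from WT did not pass (log2 difference 3.69, SE 1.86, adjusted p = 0.131). Leaving out KI_Chd7del library 3 gave a log2 difference of 5.76 (adjusted p = 0.0143). Ccl24 (ENSMUSG00000004814), a chemokine that attracts eosinophils, was at 12, 8 and 5, 8313, 3875 and 7656 and 449, 161 and 166, and all its KI_Chd7del libraries stayed above WT (log2 difference 4.69, SE 0.46, adjusted p = 6.26e-05). Ccl8 (ENSMUSG00000009185), a chemokine for monocytes, eosinophils and T cells, had 32, 72 and 40, 4931, 982 and 4147 and 66, 52 and 34, so KI_Chd7del lay within the WT range (log2 difference 0.11, SE 0.58, adjusted p = 0.89).

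The Retnla window is shown as that of the secreted factor with the highest KI mean, and lies at chr16:48842359-48842608.
Retnla: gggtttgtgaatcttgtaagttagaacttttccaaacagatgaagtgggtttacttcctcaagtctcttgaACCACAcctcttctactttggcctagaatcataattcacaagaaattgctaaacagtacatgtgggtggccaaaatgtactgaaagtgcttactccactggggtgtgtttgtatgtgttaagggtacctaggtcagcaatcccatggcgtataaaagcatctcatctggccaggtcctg
It held no GATAA and 1 TGTGGT, on the reverse strand.

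Wnt2 (ENSMUSG00000010797), a Wnt ligand, was at 2, 0 and 0 in WT, at 2399, 1782 and 3235 in KI and at 208, 441 and 70 in KI_Chd7del, and was higher in KI_Chd7del than in WT (adjusted p = 4.82e-05). Il13, the cytokine that drives alternative activation and is made by mast cells and basophils, was listed at 0 in all WT libraries, with 241, 177 and 300 in KI and 34, 25 and 13 in KI_Chd7del (adjusted p = 2.4e-05 against WT). Cxcl12, the chemokine that retains progenitors in marrow, stood at 96, 91 and 76, 1167, 772 and 1733 and 167, 483 and 95. Igf1, an insulin-like growth factor, was at 318, 346 and 223, 3415, 1612 and 2440 and 675, 449 and 571. Il10, an anti-inflammatory cytokine gene, was low throughout, at 2, 13 and 6, 172, 88 and 235 and 7, 16 and 9. Of the 12 secreted factors, 6 were called higher in KI_Chd7del than in WT (24% of all tested genes) and 6 did not pass. The BMP antagonist gene Nog, the serum amyloid gene Saa3, C1qtnf1 and the gut peptide gene Pyy were the remaining ones, and Pyy was listed at 0 in all WT and KI_Chd7del libraries.

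Without the members Il13 and Cish, a list of IL-4 and IL-13 signalling had 9 tested genes, of which 6 were called higher in KI than in WT (31.8% of all tested genes) and 8 lower in KI_Chd7del than in KI (22.9%), with medians of 0.86 and -0.53. Il13ra1, a receptor chain for both cytokines, rose in KI from 233, 379 and 513 to 1491, 1231 and 1225 (log2 difference 1.87, SE 0.28, adjusted p = 0.000351) and fell to 260, 417 and 414 in KI_Chd7del (log2 difference -1.88, SE 0.28, adjusted p = 0.0011). Both differences of Il13ra1 were larger than the list's medians. Il4ra, Jak1 and Stat6 were not called in KI against WT, but were called lower in KI_Chd7del than in KI. Cish, a feedback inhibitor of cytokine signalling, stood at 96, 180 and 141, 1381, 1080 and 1965 and 367, 247 and 219.

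Of 17 genes of a list for alternative macrophage activation, 5 were members: Arg1, Retnla, Ccl24, Ccl8 and Pdcd1lg2. Of the other 12, 6 were called higher (31.8% of all tested genes) and 4 lower (27.2%) in KI than in WT, and 6 lower (22.9%) and 2 higher (17.5%) in KI_Chd7del than in KI, with medians of 0.43 and -0.70. Mrc1, the mannose receptor, rose in KI from 1534, 2019 and 1466 to 11092, 5718 and 9961 (log2 difference 2.37, SE 0.22, adjusted p = 2.06e-05) and fell to 1295, 1364 and 1286 in KI_Chd7del (log2 difference -2.71, SE 0.22, adjusted p = 6.67e-05). Clec7a, the receptor for fungal glucans, rose from 1191, 1447 and 1791 to 8300, 6489 and 8226 (log2 difference 2.39, SE 0.14, adjusted p = 1.82e-06) and fell to 1521, 1657 and 1530 (log2 difference -2.28, SE 0.14, adjusted p = 2.42e-05). The 4 called lower in KI than in WT were Chil3, Chil4, Mgl2 and Il1rn. Chil3, the most abundant of the 12, fell from 262429, 355811 and 374536 in WT to 183569, 176829 and 135316 in KI. It stood at 176911, 122825 and 102234 in KI_Chd7del, and its difference from KI did not pass. With Chil3 included, the 12 genes summed to 274185 to 389236 for WT, 165049 to 213987 for KI and 114863 to 188373 for KI_Chd7del. None of 16 resident macrophage genes was a member. Of the 15 tested, 13 were called higher in KI than in WT and lower in KI_Chd7del than in KI, with medians of 0.96 and -1.35. Vcam1 and Slc40a1, the most abundant of the list in WT, were called in the opposite direction in both comparisons. The list's summed level, of which these 2 are part, was 36453 to 42457 for WT, 36287 to 55185 for KI and 27722 to 29149 for KI_Chd7del.

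Cytokine and chemokine receptors, 8 members, included 3 of the 5 members with the highest KI mean. Il1rl1 (ENSMUSG00000026069, chromosome 1, 40429570 to 40465415), the receptor for interleukin-33 on mast cells and basophils, stood at 1308, 1286 and 1122 in WT, at 44037, 28151 and 48086 in KI and at 13457, 9225 and 6578 in KI_Chd7del. At 24.3% of KI it lay close to the limit of the choice, and it was higher in KI_Chd7del than in WT (log2 difference 2.92, SE 0.26, adjusted p = 4.18e-05). Csf2rb2 (ENSMUSG00000071714), the beta chain of the interleukin-3 receptor, was at 1456, 1308 and 1483, 35969, 25851 and 50319 and 5415, 4814 and 3109 (log2 difference 1.61, SE 0.25, adjusted p = 0.000771, KI_Chd7del against WT). Ccr2 (ENSMUSG00000049103), by which monocytes leave the marrow, was at 2872, 2143 and 2356, 37989, 32920 and 36652 and 8375, 6209 and 5567 (log2 difference 1.44, SE 0.15, adjusted p = 9.9e-05). Lifr, a receptor for leukaemia inhibitory factor, was at 34, 46 and 51, 2177, 1922 and 2225 and 337, 232 and 154 (log2 difference 2.39, SE 0.26, adjusted p = 0.000113). In this group 7 of 8 were called higher in KI_Chd7del than in WT (24% of all tested genes), the exception being the chemerin receptor gene Cmklr1 at 73, 66 and 70, 1000, 496 and 662 and 80, 141 and 124.

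Among 7 other G protein-coupled receptors, 6 were called higher in KI_Chd7del than in WT (24% of all tested genes). Gpr35 was at 114, 176 and 182 in WT, at 4015, 3002 and 3202 in KI and at 497, 650 and 481 in KI_Chd7del (adjusted p = 0.000117 against WT). Cysltr1, a leukotriene receptor gene, was at 58, 58 and 80, 938, 741 and 824 and 131, 161 and 169, and Ednrb, an endothelin receptor gene, at 13, 9 and 5, 990, 424 and 883 and 22, 39 and 35.

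Innate and inhibitory receptors made up 13 members, of which 9 were called higher in KI_Chd7del than in WT (24% of all tested genes) and 4 did not pass. Cd200r3, an activating receptor of basophils and mast cells, stood at 120, 106 and 125 in WT, at 4939, 3756 and 6137 in KI and at 1033, 1051 and 688 in KI_Chd7del (log2 difference 2.95, SE 0.20, adjusted p = 1.23e-05). Trem2, a lipid receptor of macrophages, was at 134, 88 and 116, 2781, 2128 and 2645 and 418, 367 and 336 (log2 difference 1.74, SE 0.17, adjusted p = 5.66e-05). Fcgr1, the high-affinity IgG receptor of monocytes and macrophages, had 3197, 3179 and 2965 in KI with little spread, 142, 245 and 176 in WT and 443, 754 and 809 in KI_Chd7del. Msr1, a scavenger receptor of macrophages, stood at 55, 75 and 47, 1168, 1067 and 982 and 91, 79 and 66, where the KI_Chd7del and WT ranges overlapped. The Cd200r and Ms4a families hold alike copies, so reads may be split between them.

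Matrix and adhesion genes included the most abundant member. Fn1 (ENSMUSG00000026193, chromosome 1, 71585520 to 71653200), fibronectin, stood at 622, 478 and 600 in WT, at 79972, 65084 and 70325 in KI and at 11001, 6592 and 4401 in KI_Chd7del, and stayed above WT in all KI_Chd7del libraries (log2 difference 3.60, SE 0.27, adjusted p = 2.09e-05). Vcan (ENSMUSG00000021614), the proteoglycan versican of monocytes, was at 23, 20 and 14, 3319, 3003 and 3008 and 99, 130 and 73, with the 3 groups apart (log2 difference 2.33, SE 0.23, adjusted p = 6.61e-05, KI_Chd7del against WT) and 3.24% of KI left. Cldn3, a tight junction protein gene, was listed at 0 in all WT libraries and reached 339, 144 and 386 in KI and stood at 13, 8 and 5 in KI_Chd7del. Fn1, Vcan and Ccr2 belong to a list of 15 monocyte genes. Of the other 12, 8 were called higher (31.8% of all tested genes) and 1 lower (27.2%) in KI than in WT, and 7 lower (22.9%) and 2 higher (17.5%) in KI_Chd7del than in KI, with medians of 2.39 and -0.80. Csf1r, the receptor for macrophage colony-stimulating factor and no member, rose from 3843, 4359 and 4758 to 31256, 23566 and 28645 (log2 difference 2.68, SE 0.13, adjusted p = 5.38e-07) and fell to 11177, 14434 and 12602 (log2 difference -1.13, SE 0.13, adjusted p = 0.000297). Cx3cr1 was called the other way in both comparisons, at 787, 988 and 1044, 223, 188 and 192 and 307, 658 and 806. Irf8 was called higher in both, at 4966, 3723 and 3403, 7074, 7850 and 8749 and 12341, 11208 and 11292. Ly6c2 passed in neither, at 29408, 31831 and 34556, 33857, 41191 and 38255 and 41824, 48031 and 42827. The 12 monocyte genes outside the module summed to 65003 to 71741 for WT, 216641 to 227972 for KI and 135739 to 155084 for KI_Chd7del, and the part of monocyte number in the members' values was not tested.

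Complement and clotting genes included C6 and F7. C6, a part of the membrane attack complex, was at 2, 9 and 5 in WT, at 580, 149 and 605 in KI and at 4, 9 and 1 in KI_Chd7del, which left 1.05% of its KI mean.

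Transcription regulators numbered 15, of which 11 were called higher in KI_Chd7del than in WT (24% of all tested genes) and 4 did not pass. Runx1t1 (ENSMUSG00000006586), the ETO co-repressor gene that is itself fused to RUNX1 in another leukaemia, stood at 5, 5 and 6 in WT, at 2048, 1307 and 2429 in KI and at 225, 117 and 18 in KI_Chd7del (log2 difference 3.66, SE 0.74, adjusted p = 0.00333). Its 3 KI_Chd7del libraries differed widely, but the lowest was above the highest WT library. Ciita (ENSMUSG00000022504), the master activator of class II antigen presentation genes, was at 198, 263 and 257, 4213, 3239 and 3528 and 587, 923 and 916 (log2 difference 1.73, SE 0.19, adjusted p = 0.000114). Sox6, which acts in red cell maturation, was at 650, 535 and 666, 7788, 5930 and 9319 and 808, 1090 and 462. Batf3 and Atf3, bZIP factors whose genes are neighbours, stood at 14, 24 and 18, 393, 231 and 365 and 58, 42 and 37 and at 21, 26 and 56, 731, 647 and 930 and 81, 83 and 111. Dbx2, a homeobox gene of the nervous system, was listed at 0 in all WT libraries and reached 255, 210 and 288 in KI and stood at 65, 64 and 16 in KI_Chd7del (adjusted p = 4.09e-05).

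The remaining 86 members were left outside these 10 roles. S100a4, a calcium-binding protein, stood at 391, 284 and 361 in WT, at 8690, 6466 and 7326 in KI and at 1615, 1179 and 1207 in KI_Chd7del (log2 difference 1.94, SE 0.16, adjusted p = 3.06e-05). Grap2, an adaptor of antigen receptor signalling, was at 188, 205 and 231, 8544, 6973 and 11627 and 1565, 1480 and 733 (log2 difference 2.52, SE 0.28, adjusted p = 0.00013). Mrvi1, a substrate of cGMP-dependent kinase, was at 212, 122 and 160, 9628, 7157 and 12805 and 516, 704 and 419 (log2 difference 1.73, SE 0.27, adjusted p = 0.000776). Prnp, the prion protein gene, stood at 963, 898 and 876, 9314, 5058 and 9908 and 1206, 1432 and 810, with KI_Chd7del on both sides of WT. Gsg1l, an auxiliary protein of glutamate receptors, was at 5, 0 and 0, 2729, 2134 and 3158 and 319, 282 and 109 (adjusted p = 6.43e-05, KI_Chd7del against WT). Rprm, a p53 target, was listed at 0 in all WT libraries and reached 278, 172 and 354 in KI and stood at 85, 63 and 43 in KI_Chd7del (adjusted p = 4.64e-06). The kinase gene Prkd1 and C2cd4a were at 1 in all 3 WT libraries and at 111, 157 and 46 and 575, 225 and 51 in KI_Chd7del (adjusted p = 1.41e-05 and adjusted p = 9.06e-05). Svs2, a seminal vesicle protein gene, and Wfdc12, a protease inhibitor gene in the same neighbourhood, had 427, 66 and 332 and 212, 29 and 136 in KI. In KI_Chd7del Svs2 had 0, 1 and 0 and Wfdc12 was listed at 0 throughout.

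Against WT, a comparison on which the choice set no limit although both means enter it, most members stayed raised in KI_Chd7del. Of the 168, 125 were called higher (24% of all tested genes), 1 lower and 42 in neither direction, with a median log2 difference of 1.59 beside 0.02 over all tested genes. Every KI_Chd7del library lay above every WT library for 122 members (28.9% of tested genes), and below for 2 (28.8%). The KI_Chd7del mean was at or below the WT mean for 11 members, among them Hba-a1, Hbq1b, Arg1, C6, Svs2, Wfdc12 and Pyy. Measured from the WT mean, the median member kept 8.81% of its rise in KI. Since a high KI mean and a low ratio were both demanded, these shares describe the chosen genes and are no test.

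**Figure D4:**
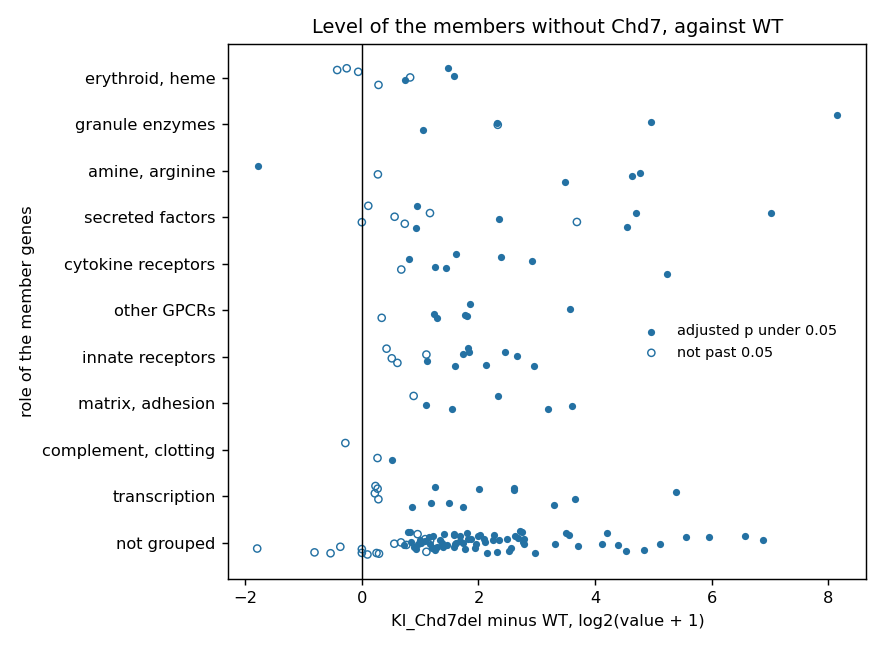
Log2 difference between KI_Chd7del and WT on log2(value + 1) for each of 168 members (points), by role, with filled points for an adjusted p under 0.05 in limma. The erythroid members lie between -0.42 and 1.57, while 70 of the 86 members without a role and 7 of 8 cytokine receptors are filled to the right of 0.

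Libraries within a group differed in the module as a whole. KI library 2 was the lowest of the 3 for 150 members (89.3%), and for 40.3% of all tested genes. Relative to the mean of KI libraries 1 and 3, library 2 had a median of 64.4% over the members, from 10.1% to 172%, and stood under 50% for 34 members. The 12 secreted factors had a median of 51.0% and the 5 genes of amine and arginine metabolism 33.7%, while cytokine receptors were at 65.3% and granule enzymes at 83.5%. Arg1 stood in library 2 at 21.4% of the other 2, Ccl8 at 21.6% and Cma1 at 14.4%. By contrast, Fcgr1 was at 103% and Mcpt2 at 100%.

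**Figure D5:**
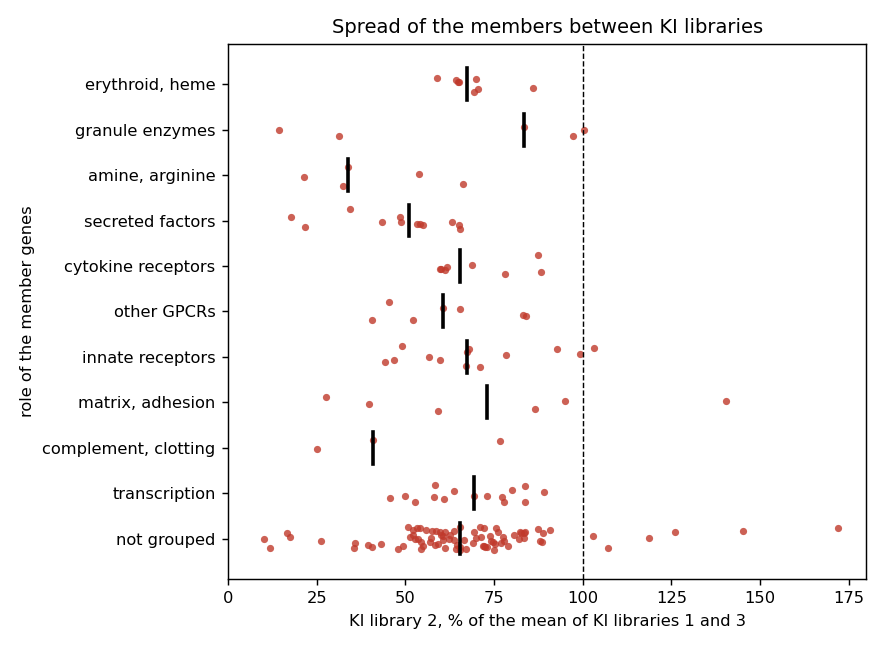
Value in KI library 2 as a percentage of the mean of KI libraries 1 and 3 for each member (points), by role, with the median of each role as a black bar and a dashed line at 100%. Amine and arginine genes (median 33.7%) and secreted factors (51.0%) lie lowest, and 9 members lie above 100%.

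Other measures moved with library 2. Chd7 was at 2934 there beside 1979 and 2009, and 14 late neutrophil genes, none of them a member, summed to 745894 beside 374817 and 161423. The mast cell genes outside the module summed to 81456 beside 125542 and 126172. Their part in the members' spread was not tested. Without KI library 2 the choice would have taken 208 genes, including 167 of the 168 members, and without KI library 3 it would have taken 147, including 142. In KI_Chd7del, library 3 was the lowest for 118 members (70.2%, and 28.5% of all tested genes), and the median member differed 2.00-fold between the highest and lowest library. Late neutrophil genes, none of which was a member, were called lower in KI than in WT in 14 of 14 (27.2% of all tested genes). In KI_Chd7del against KI, 14 of 14 were called higher (17.5%). Their sums were 4455431 to 5565922 for WT, 161423 to 745894 for KI and 1345119 to 1732801 for KI_Chd7del.

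For 2 members a single KI library made up the mean. Als2cl had 121, 167 and 2685 in KI and Ighv1-12, an immunoglobulin variable segment, 1958, 107 and 167. Both were the members not called in KI against WT, and Als2cl was the 1 not called in KI_Chd7del against KI.

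Some members lay near each other. Of the 168, 167 could be placed in GENCODE M21, and 36 (21.4%) lay within 200 kb of another member, in 27 pairs, against 21 (12.1%) and 12 pairs among the 174 induced genes above 25%. This difference was not tested. Of the 27 pairs, 10 came from the 5 genes around the alpha globins and 3 from Cma1, Mcpt1 and Mcpt2. Atp8b5 and Rusc2 were 8.15 kb apart, Esyt3 and Mras 26.9 kb, Gpr35 and Kif1a 29.1 kb and Tph1 and Saa3 39.5 kb. Batf3 and Atf3, Rgs7bp and Rnf180, Erv3 and Prnp, Wfdc12 and Svs2, Dusp3 and Pyy, Nlrp1b and Nlrp1c-ps, Cd200r4 and Cd200r3, and Ms4a4a and Ms4a6d were among the other pairs, beside the overlapping Ddc and 1700042O10Rik. Neighbours did not always share their level: in Tph1 and Saa3 the KI_Chd7del means were 1.11% and 18.7% of KI.

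The genes outside the module whose pattern over the 9 libraries was most like the members' mean profile were found by Pearson's r on log2(value + 1). Tom1l1, a trafficking adaptor gene, had r = 0.998, with 650, 611 and 632 in WT, at 3367, 2559 and 3800 in KI and at 1287, 1277 and 954 in KI_Chd7del. Ppard, a nuclear receptor gene for fatty acids, had r = 0.998, with 673, 676 and 646, 2166, 1918 and 2265 and 1032, 1009 and 934. Ahcyl2, Dr1, Soat2, Tmppe, Tmem104 and Kat6b followed, down to r = 0.994. The 9 libraries form 3 groups, so these coefficients describe the order of groups as much as that of libraries.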

How the data were processed

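The authors deposited 1 table of whole numbers per gene for 9 libraries. The deposited values were treated as a score: they appear to be read numbers scaled by a factor for each library and rounded, though no source used here says so. WT library 3 has no gene at 3 or 10, and each of the other 8 libraries has a value between 3 and 14 held by at least 1.6 times as many genes as the mean of its neighbours. The submitters' processing notes name GRCm38 and the tools DESeq2, RSEM, STAR 2.4 and CASAVA 1.8.2, with roles and annotation release not given in the sources used here. No count test was run on these values. Symbols, exon lengths and positions came from GENCODE M21, and 42548 identifiers had a symbol.

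The test was limma 3.58.1 (R 4.3.3) with a trend, 2-sided, on log2(value + 1) of the 9 libraries, for genes reaching 10 in at least 3, with Benjamini-Hochberg adjusted p under 0.05. Log2 differences are on that scale, which can understate changes of low genes. The fold values given for granule enzymes are ratios of group means with nothing added. Python 3.11.15 with pandas 2.3.3 selected the members. On simulated data the fit recovered genes changed 4-fold, while recovery of genes changed 2-fold fell short of the level first set for it, so smaller changes can be missed. Depth is known only as the scaled totals, so no counting interval is given.

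The members, lists and tests were chosen with earlier results of these data known, and the 10 roles after the members' values were seen. Named members were those in a gene list, the 15 with the highest KI mean, the 8 with the lowest ratio of KI_Chd7del to KI, 3 on each side of each limit, the 8 with the largest called difference from WT in each direction, those within 200 kb of another member and the 8 most alike genes. Others, such as Runx1t1, Lifr, Trem2, Msr1, Fcgr1, Als2cl, Ednrb and Erfe, and genes outside the module, were picked after their values were seen. Values of some genes under these rules are not reported here. Lists with few or no members are given under other observations. Alternatives were other filters, pseudocounts and scalings, no trend, pairs of groups alone, a replicate block and each library left out.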

Additional observations from a re-analysis of the deposited data

How the results depend on the processing

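Members called numbered 161 to 166 for KI against WT, 159 to 167 for KI_Chd7del against KI and 109 to 133 for KI_Chd7del against WT over all alternatives run. The choice itself took 185 genes with scaling to the column total, 148 with upper-quartile factors, 179 by group medians and 147 to 208 without 1 library. Asking every KI library to pass both ratios left 108. Of 1311 results of single genes under alternatives, 1287 kept direction and call. Differences from WT in KI_Chd7del changed sign for 6 genes when 1 library was left out, with ranges of -0.47 to 0.67 for Alas2, -0.13 to 0.44 for Ccl8, -0.65 to 0.32 for Hba-a1, -0.27 to 1.01 for Hba-a2, -0.89 to 0.26 for Hbb-bs and -0.79 to 0.14 for Hbq1b, and for Alas2 with the column total (0.18). None of the 6 passed with all libraries. Without KI_Chd7del library 3, Hba-a2 passed (log2 1.01, adjusted p = 0.0297). Mrc1 passed against WT without KI library 2 (-0.33, adjusted p = 0.0393). Arg1 also lost its lower call without the filter, with a pseudocount of 16, the column total or no trend (adjusted p = 0.051 to 0.401), and Cma1 its call with a pseudocount of 16 (0.0793).

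With scaling to the column total, the median log2 difference of all genes went from 0.02 to 0.25 for KI against WT and from 0.02 to 0.26 for KI_Chd7del against WT, and the share of calls that were higher went from 53.9% to 74.3% and from 49.7% to 78.9%. Upper-quartile factors moved that share from 43.4% to 56.4% for KI_Chd7del against KI. Same-numbered libraries correlated in their deviations at -0.153 to 0.109 and others at -0.167 to 0.208, so the numbers were not taken to pair samples. A replicate block gave 166, 167 and 122 members called. Depth limits members with values near 0 in WT or KI_Chd7del, whose differences depend on the pseudocount.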

Other observations

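Other gene lists held few of the 168 members, and their calls are given here with the same limma test, without the members and beside 31.8% higher and 27.2% lower among all tested genes for KI against WT and 17.5% higher and 22.9% lower for KI_Chd7del against KI. Lists overlap in part. Of 7 tested basophil genes beside the members Cd200r3 and Il13, 3 were called higher and 2 lower in KI than in WT, and 3 higher and 1 lower in KI_Chd7del than in KI. The eosinophil list had 10 tested genes, with 1 higher and 6 lower for KI against WT and 6 higher and 2 lower for KI_Chd7del against KI, with no member of the module. Among 14 dendritic cell and class II antigen presentation genes beside Ciita and Batf3, KI against WT gave 10 higher and 2 lower, and KI_Chd7del against KI 2 higher and 6 lower. Of 8 tested early granule genes, 7 were called lower in KI than in WT and 8 higher in KI_Chd7del than in KI, with no member of the module. The megakaryocyte and platelet list had 11 tested genes, with 3 higher and 6 lower for KI against WT and 8 higher and 1 lower for KI_Chd7del against KI, with no member of the module. Among 12 B cell genes, KI against WT gave 4 higher and 1 lower, and KI_Chd7del against KI 7 higher and 1 lower, with no member of the module. Of 12 tested T and NK cell genes, 5 were called higher and 2 lower in KI than in WT, and 2 higher and 3 lower in KI_Chd7del than in KI, with no member of the module. The stem cell list had 13 tested genes, with 8 higher and 1 lower for KI against WT and 9 higher and 4 lower for KI_Chd7del against KI, with no member of the module. Among 10 stroma and endothelium genes beside Cxcl12, KI against WT gave 1 higher and 3 lower, and KI_Chd7del against KI 3 higher. Of 10 tested arginine and polyamine genes beside Arg1 and Slc7a2, 3 were called higher and 1 lower in KI than in WT, and 2 higher and 3 lower in KI_Chd7del than in KI. The eicosanoid list had 12 tested genes, with 4 higher and 6 lower for KI against WT and 4 higher and 4 lower for KI_Chd7del against KI, with no member of the module. Among 15 chemokine genes beside Ccl8, Ccl24 and Cxcl12, KI against WT gave 7 higher and 2 lower, and KI_Chd7del against KI 3 higher and 4 lower. Of 15 tested cytokine and growth factor genes beside Il10, Il13 and Igf1, 6 were called higher and 4 lower in KI than in WT, and 5 higher and 3 lower in KI_Chd7del than in KI. The Wnt ligand and receptor list had 12 tested genes beside Wnt2, with 4 higher and 2 lower for KI against WT and 3 higher and 4 lower for KI_Chd7del against KI. Among 7 mast cell protease and tryptase genes beside Cma1, Mcpt1 and Mcpt2, KI against WT gave 4 higher and 2 lower, and KI_Chd7del against KI 3 higher and 2 lower.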
